A study of Mus musculus with 12 samples.

Results

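Of the 12 mouse libraries in the series, 8 carry a name that begins with AD, and they are described here against the other 4. The 8 were chosen by their titles alone: 4 are titled AD_B6 and 4 AD_TG, and the 4 comparison libraries are titled SJL_B6. All 12 are labelled with strain C57BL/6, the meninges as tissue and an age of 20 weeks. The study isolated meningeal lymphatic endothelial cells from a few mice of each strain by magnetic sorting, extracted total RNA, and sequenced it from the 3′ ends of transcripts. The labels do not spell out AD, TG, SJL or B6, and they name neither an allele, a transgene nor an agent, so no targeted gene could be checked. It is not said whether each library stands for an animal of its own, so p-values measure the spread between these libraries, which may be technical. Whatever the AD label and the SJL label stand for differs between the groups at the same time, and the 2 cannot be told apart.

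Meningeal lymphatic vessels lie in the dura along the venous sinuses and drain cerebrospinal fluid, solutes and immune cells to the cervical lymph nodes. Their endothelium is specified by the transcription factor Prox1 and is kept by VEGF-C acting on the receptor Flt4 (VEGFR3). Lyve1, a hyaluronan receptor, and Pdpn, a membrane mucin, are common surface markers of these cells, but macrophages carry Lyve1 and fibroblasts carry Pdpn as well. In mouse models of amyloid deposition, loss of this drainage is known to worsen amyloid in the meninges and brain. The dura also holds resident macrophages that present antigen through MHC class II, granulocytes from skull marrow, fibroblasts and mural cells, and the choroid plexus and pineal gland lie next to the meninges.

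The deposited values are log2 levels of each gene, and a gene is said here to have reads in a library where its linear value was 0.3 or more. The estimated number of reads was 4205331 to 9266489 in the AD-labelled libraries and 4068065 to 9249565 in SJL_B6. Genes with reads numbered 8748 to 12016 in the AD-labelled libraries, median 11233, and 10860 to 12216 in SJL_B6, and this did not differ beyond the spread (exact permutation test, two-sided, p = 0.372, adjusted over 5 library measures 0.804; the smallest p this design allows is 0.004). AD_B6 replicate 3 was the lowest of the 12 with 8748. The libraries agreed poorly with one another: over the genes tested, the median correlation between 2 libraries of one group was 0.467 and between groups 0.469. A gene at a linear value of 100 or more in one library and without reads in another of the same group was common, with 4835 genes (40.4%) in AD_B6, 3176 (26.6%) in AD_TG and 3403 (28.5%) in SJL_B6. In 5 libraries, 3 of the 8 AD-labelled and 2 of SJL_B6, genes without reads are listed at small values above 0 instead of at 0. The files do not state what sets these 5 apart.

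The labelled cell type was checked against its markers. Prox1 had no reads in any of the 8 AD-labelled libraries and had reads in 2 of the 4 SJL_B6 libraries, at 8.38 and 0.88 on the deposited log2 scale. The value of 0.88, in SJL_B6 replicate 4, is about that of 1 read, so the contrast rests on SJL_B6 replicate 1. The defining factor of lymphatic endothelium was thus without reads in the AD-labelled libraries at this depth. Summed over the 15 lymphatic endothelial markers, the share of the linear total was 0.0659% to 0.118% in the AD-labelled libraries and 0.0897% to 0.102% in SJL_B6. The 11 choroid plexus genes held 0.405% to 11.3% and 0.307% to 6.602%, the 15 meningeal fibroblast genes 0.536% to 1.71% and 0.848% to 0.965%, and the 17 macrophage genes 0.278% to 0.671% and 0.453% to 0.816%. These 3 lists thus held more of the signal than the lymphatic markers in both sets of libraries. The 17 general endothelial genes held less, at 0.0221% to 0.0486% and 0.0302% to 0.0593%. In RNA from sorted bulk samples, fewer cells of a type and less RNA per cell cannot be told apart. Xist, which is transcribed from the inactive X chromosome, had reads in 4 of 4 SJL_B6 and 3 of 8 AD-labelled libraries, while the Y-linked gene Ddx3y had reads in all 12, at 8.18 to 10.53. The labels give no sex.

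**Figure D1:**
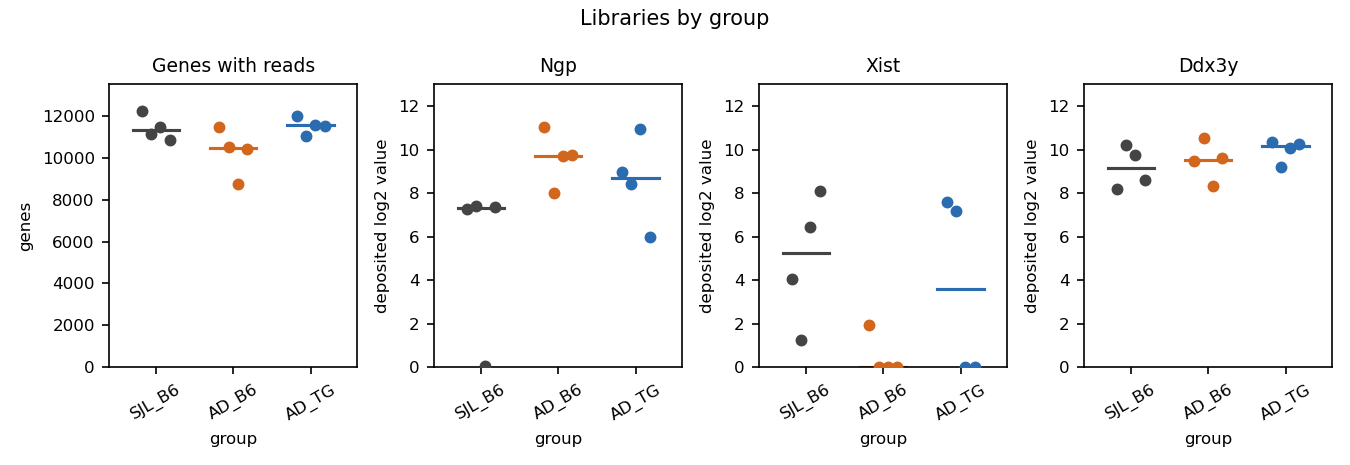
Each point is a library and each bar a group median, for the number of genes with reads and for the deposited log2 values of the granule gene Ngp, of Xist and of Ddx3y. AD_B6 replicate 3 has the fewest genes with reads (8748), 7 of the 8 AD-labelled libraries lie above every SJL_B6 library for Ngp, and Ddx3y has reads in every library.

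No gene passed in the comparison of the 8 AD-labelled with the 4 SJL_B6 libraries. Of 11955 genes tested with limma, 0 had an adjusted p below 0.05, and the lowest adjusted p was 0.992. At an unadjusted p below 0.05, 229 genes (1.92%) were higher and 185 (1.55%) lower in the AD-labelled libraries. Together these were 414 genes (3.46%), where 5% of the genes tested would be 597.75. With each library centred on its mean, 300 were higher and 131 lower, so 69.6% of them were higher in place of 55.3%; centring moved the median difference of all genes from -0.14 to 0.01. With a term for the 5 libraries that list small values, 241 were higher and 191 lower, in the 7 other libraries alone 178 and 117, and in the 5 alone 249 and 470, with 0 genes passing in each of these fits. The 5 hold 1 AD_B6 library, which is assumed to vary like the others. The lower count was 118 without SJL_B6 replicate 3 and 296 without AD_B6 replicate 1. The comparison resolved large differences only, since the median half-width of the 95% interval was 3.34 on the log2 scale. Among the 965 genes with a mean log2 value of 10 or more and reads in all 12 libraries it was 0.83, and there 9 (0.933%) were higher and 13 (1.35%) lower at an unadjusted p below 0.05. Of 155 genes recomputed with each library left out in turn, 65 had a difference that 1 library moved by over 1.5 times, and of the 66 at an unadjusted p below 0.05, 31 stayed there throughout. Many of the 155 were picked by small p or by separation in these same libraries, so the 31 are not support. The adjusted p of every tested gene named hereafter was 0.992 or more by limma, so "higher" and "lower" describe measured values and not a passed test.

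The question of which genes differ the same way in both AD groups was answered by count. Against SJL_B6, 3421 genes (28.6%) were higher and 4193 (35.1%) lower in both AD_B6 and AD_TG, and 4341 (36.3%) went in opposite directions. An unadjusted p below 0.05 in both comparisons was reached by 45 genes (0.376%) that were higher and 25 (0.209%) that were lower, and by 0 that went opposite ways. The 45 became 71 without SJL_B6 replicate 2, 90 without replicate 3 and 71 without replicate 4, and 29 and 26 without AD_TG replicates 3 and 4. Both comparisons use the same 4 SJL_B6 libraries, which moves their differences together. Each group taken alone gave no gene at an adjusted p below 0.05 by limma, with 162 genes higher and 484 lower at an unadjusted p below 0.05 for AD_B6 and 220 and 138 for AD_TG. Between AD_TG and AD_B6 themselves 0 genes passed, the lowest adjusted p being 0.871 by limma, and 519 were higher and 120 lower in AD_TG at an unadjusted p below 0.05. For each of these comparisons, 5% of the genes tested would be 597.75, both directions together.

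Gulp1, Fam219b, Mthfd1, Pygl, Mid1ip1, Cript, 1700021K19Rik, Slc35f3, Cap1 and Zfp597 had the smallest unadjusted p among genes higher in both AD groups with a mean log2 value of 3 or more. They were picked by that p, so its small size is not a finding. Gulp1 encodes an adaptor used in the engulfment of dying cells. Its log2 values were 0.02, 1.63, 3.51 and 0.00 in SJL_B6, and the 8 AD-labelled libraries ran from 6.10 to 9.40 with a median of 8.07. No AD-labelled library overlapped SJL_B6, and the difference of 6.61 (SE 1.65) had an unadjusted p of 0.000505. Cript, whose protein binds PDZ domains of synaptic scaffolds, had values of 3.02, 2.18, 3.27 and 4.94 in SJL_B6 and 6.24 to 9.63, median 8.05, in the AD-labelled libraries, again without overlap (difference 4.61, SE 1.35, unadjusted p = 0.00233). All 12 libraries had reads for it.

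Cap1, a regulator of actin filaments, was at 6.49, 7.60, 8.35 and 7.83 in SJL_B6 and at 8.16 to 10.63, median 9.75, in the AD-labelled libraries. AD_TG replicate 4, at 8.16, was the one library inside the SJL_B6 range, and the difference was 2.02 (SE 0.63, unadjusted p = 0.00398). Mthfd1, an enzyme of folate-dependent one-carbon metabolism, varied widely in SJL_B6, at 1.76, 5.95, 3.27 and 8.56, and little in the AD-labelled libraries, at 8.08 to 9.54 (difference 4.02, SE 1.10, unadjusted p = 0.00119). A like pattern held for Mid1ip1, which promotes fatty acid synthesis by acting on acetyl-CoA carboxylase, with 1.76, 4.87, 9.20 and 9.56 in SJL_B6 against 8.88 to 10.87. For both genes the SJL_B6 libraries were spread over the whole range while the AD-labelled ones were not.

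Pygl, the liver form of glycogen phosphorylase, was at 7.82, 5.70, 0.07 and 4.17 in SJL_B6 and at 7.16 to 10.03, median 8.97, in the AD-labelled libraries. Fam219b had reads in SJL_B6 replicate 1 alone, at 9.41, but in all 8 AD-labelled libraries, at 7.20 to 9.48. Without that SJL_B6 library its difference went from 6.31 to 8.66, with an unadjusted p of 8.23e-06. The solute carrier Slc35f3 and the zinc finger gene Zfp597 had no reads in any SJL_B6 library and had reads in all 8 AD-labelled ones, at 4.21 to 8.60 and at 1.22 to 8.62. 1700021K19Rik was at 0.02, 8.12, 6.38 and 0.00 in SJL_B6 and at 6.91 to 9.60 in the AD-labelled libraries. All 8 AD-labelled libraries thus had reads for each of the 10 genes, a pattern that picking by small p favours. Slc35f3 and Zfp597 passed the filter through the AD-labelled libraries alone. The lowest value of Zfp597, 1.22 in AD_B6 replicate 4, is about that of 1 read in that library.

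On the lower side, picked in the same way, most genes were read in every SJL_B6 library and in few AD-labelled ones. The filter and the picking by small p both favour this pattern, so it is not a finding of its own. A gene without reads in the AD-labelled libraries could pass the filter only if all 4 SJL_B6 libraries reached its limit. Pdc encodes phosducin, a binder of G protein subunits known from photoreceptors and the pineal gland. It was at 7.17, 8.45, 6.86 and 7.61 in SJL_B6 and had reads in 1 of 8 AD-labelled libraries, AD_B6 replicate 3, at 6.25. Slc25a36, a mitochondrial carrier of pyrimidine nucleotides, was at 7.33, 6.59, 7.57 and 7.79 in SJL_B6 and had reads in AD_B6 replicate 4 alone, at 6.67. Both genes were thus near-absent from the AD-labelled files except for 1 library each, and the unadjusted p was 0.000865 for Pdc and 0.00129 for Slc25a36.

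Fzd5, a receptor for Wnt ligands, was at 9.10, 7.69, 7.57 and 7.66 in SJL_B6 and had reads in 2 of 8 AD-labelled libraries, both AD_TG. Kif13b, a kinesin motor, was at 9.27, 6.41, 7.84 and 4.36 in SJL_B6 and at 0.00 to 4.34 in the AD-labelled libraries, where 3 had reads. Scai, a repressor of the MRTF transcription pathway, and Nup37, a nuclear pore subunit, had reads in all 4 SJL_B6 libraries, at 7.74 to 9.13 and 7.35 to 8.70, and in 3 and 2 of the 8. In each of these genes 7 or 8 of the AD-labelled libraries lay below the lowest SJL_B6 library.

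Dgcr8, the partner of Drosha in the first step of microRNA maturation, separated the AD groups as well. SJL_B6 was at 9.26, 8.57, 8.49 and 8.06, AD_TG at 5.17, 6.99, 4.79 and 8.13, and AD_B6 had no reads in any of its 4 libraries. The difference between AD_TG and AD_B6 was 6.26 (unadjusted p = 0.00593), and that from SJL_B6 was -8.59 in AD_B6 and -2.32 in AD_TG. Of the 13 genes of microRNA processing tested, this one included, 7 were higher and 6 lower, with a median difference of 0.10. Dicer1 was at 8.62 to 9.61 in SJL_B6 and 2.91 to 10.14 in the AD-labelled libraries (unadjusted p = 0.149).

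**Figure D2:**
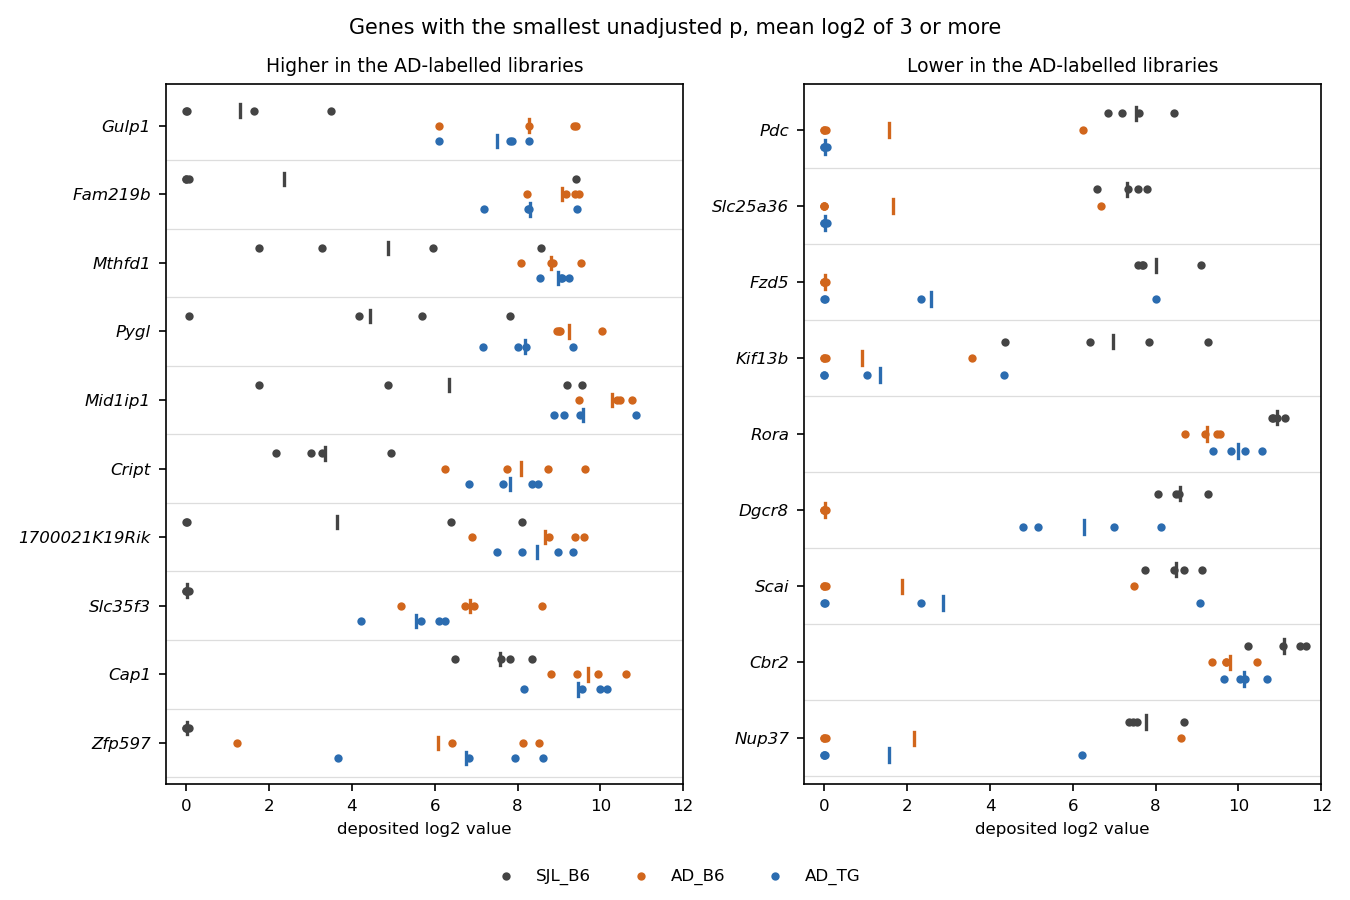
Deposited log2 values of 10 genes on the higher and 9 on the lower side, picked by lowest unadjusted p; each point is a library, coloured by group, and each vertical bar a group mean. On the higher side the AD-labelled points lie at 1.22 or above, while several SJL_B6 points are at 0; on the lower side Rora and Cbr2 are the 2 genes with reads in all 12 libraries.

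Rora and Cbr2 were the genes on the lower side that had reads everywhere and a narrow spread. Rora encodes a nuclear receptor that activates clock genes such as Bmal1. Its log2 values were 10.80, 11.11, 10.93 and 10.84 in SJL_B6, 9.49, 9.55, 8.70 and 9.19 in AD_B6, and 9.38, 10.57, 10.17 and 9.83 in AD_TG. All 8 AD-labelled libraries lay below all 4 SJL_B6 libraries, and the mean of 9.61 ± 0.58 (SD, 8 libraries) was 1.31 lower than 10.92 ± 0.14 (SD, 4 libraries). The difference had a 95% interval from -2.17 to -0.45 and an unadjusted p of 0.0044, and with each library left out in turn it stayed between -1.41 and -1.21. Cbr2, a carbonyl reductase, was at 11.64, 11.08, 10.24 and 11.47 in SJL_B6 and at 9.36 to 10.69, median 9.87, in the AD-labelled libraries. There 6 of 8 lay below the lowest SJL_B6 library (difference -1.14, SE 0.41, unadjusted p = 0.01).

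A complete separation of the 8 AD-labelled from the 4 SJL_B6 libraries was found for 11 genes on the higher side (0.092%) and 22 on the lower side (0.184%). With 8 against 4 libraries in random order, a gene separates completely in either direction with a probability of 0.004. The 2 shares together lie below this, so the counts are no more than random order would give. With any 1 library left out, fewer values had to separate, and 15 to 40 and 25 to 71 genes did. The genes are named here after their values were seen. The 11 were Specc1l, Acap2, Tvp23b, Mybbp1a, Cript, Gulp1, Zfp597, Atrnl1, Slc35f3, Ltv1 and Ftx, of which 5 had reads in all 12 libraries and 3 had none in SJL_B6. Specc1l, a cytoskeletal cross-linking protein, was at 8.85, 9.01, 7.90 and 8.93 in SJL_B6 and at 9.22 to 10.59, median 9.84, in the AD-labelled libraries (difference 1.27, SE 0.50, unadjusted p = 0.0179). Acap2, a GTPase-activating protein for Arf6, was at 3.22, 8.17, 7.53 and 7.95 against 8.47 to 10.53 (difference 2.55, SE 0.85). Without SJL_B6 replicate 1 its difference was 1.39, and in the 7 libraries that list no small values 0.87 (unadjusted p = 0.288). Mybbp1a, a nucleolar protein of ribosome production, was at 3.93, 4.97, 7.02 and 2.96 against 7.25 to 8.94 (difference 3.44, SE 1.13). Ftx, a noncoding RNA beside Xist, had no reads in SJL_B6 and was at 6.68, 3.93, 7.33 and 7.15 in AD_B6 but at 0.07, 2.68, 2.03 and 0.85 in AD_TG. Of the 11 genes it is the one in which an AD-labelled library, AD_TG replicate 1, had no reads. Its separation therefore rests on the order of values below the limit for reads, and the 10 other genes and the 22 on the lower side do not.

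The 22 genes on the lower side were Rora, Smap2, Kidins220, Scaf11, Tnfsf13, Pla2g15, Btbd2, Trmt2a, Ankzf1, Tub, Hip1r, B4galt2, Fkbp7, Ppp1r13b, Bcorl1, Pdc, Zfr2, Gm20594, Kif13b, 0610039H22Rik, Mum1l1 and Rasd1, of which 8 had reads in all 12 libraries and 15 an unadjusted p below 0.05. Zfr2, a zinc finger gene related to the RNA-binding gene Zfr, had the smallest p of all genes tested. It was at 8.27, 7.45, 7.94 and 5.74 in SJL_B6 and had reads in 1 of 8 AD-labelled libraries, AD_TG replicate 2, at 1.34 (unadjusted p = 9.5e-05). Its mean over the 12 libraries, 2.57, kept it out of the genes picked by p. Kidins220, a scaffold of neurotrophin receptor signalling, was at 10.50, 10.17, 10.08 and 10.40 in SJL_B6 and at 7.80 to 9.77, median 9.14, in the AD-labelled libraries (difference -1.21, SE 0.50). Smap2, an Arf GTPase-activating protein of the trans-Golgi, was at 10.26, 11.22, 9.78 and 10.32 against 8.54 to 9.74 (difference -1.22, SE 0.48). Scaf11, a splicing-related protein, was at 9.54, 9.62, 10.07 and 9.51 against 4.27 to 9.22 (difference -2.21, SE 0.81). Tnfsf13, the B cell survival ligand APRIL, was at 10.26, 8.67, 8.90 and 9.50 against 2.94 to 8.54 (difference -2.46, SE 1.02). In Kidins220, Scaf11 and Tnfsf13 the SJL_B6 libraries were closer together than the AD-labelled ones, and in Smap2 they were not.

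Without a mean-dependent prior for the variance (limma without its trend option), 6 genes passed at an adjusted p below 0.05: Gulp1 (0.0298), Slc35f3 (0.0118) and Atrnl1 (0.0298) higher, and Zfr2 (0.00135), Dgcr8 (0.0242) and R3hcc1l (0.0298) lower. When each library was then left out in turn, Zfr2 passed in 12 of 12 fits, Slc35f3 in 10, Dgcr8 in 7, Gulp1 in 5, Atrnl1 in 4 and R3hcc1l in 3. The genes were not filtered anew for these fits. Zfr2 passed the filter through the SJL_B6 libraries alone, and Slc35f3 and Atrnl1 through the AD-labelled ones alone. All 6 were also picked by a fit of the same libraries, so these counts are not support. R3hcc1l, named after its values were seen, did not differ the same way in both AD groups: it was at 7.58, 7.08, 7.62 and 7.12 in SJL_B6 and at 6.68, 7.09, 8.12 and 7.88 in AD_TG, and AD_B6 had no reads in any library. Atrnl1, an attractin-like membrane protein, was at 1.76, 0.75, 0.07 and 0.00 in SJL_B6 and at 5.02 to 8.004 in the AD-labelled libraries. The 6 calls rest on the choice of prior, since with the trend none of the 6 passed.

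**Figure D3:**
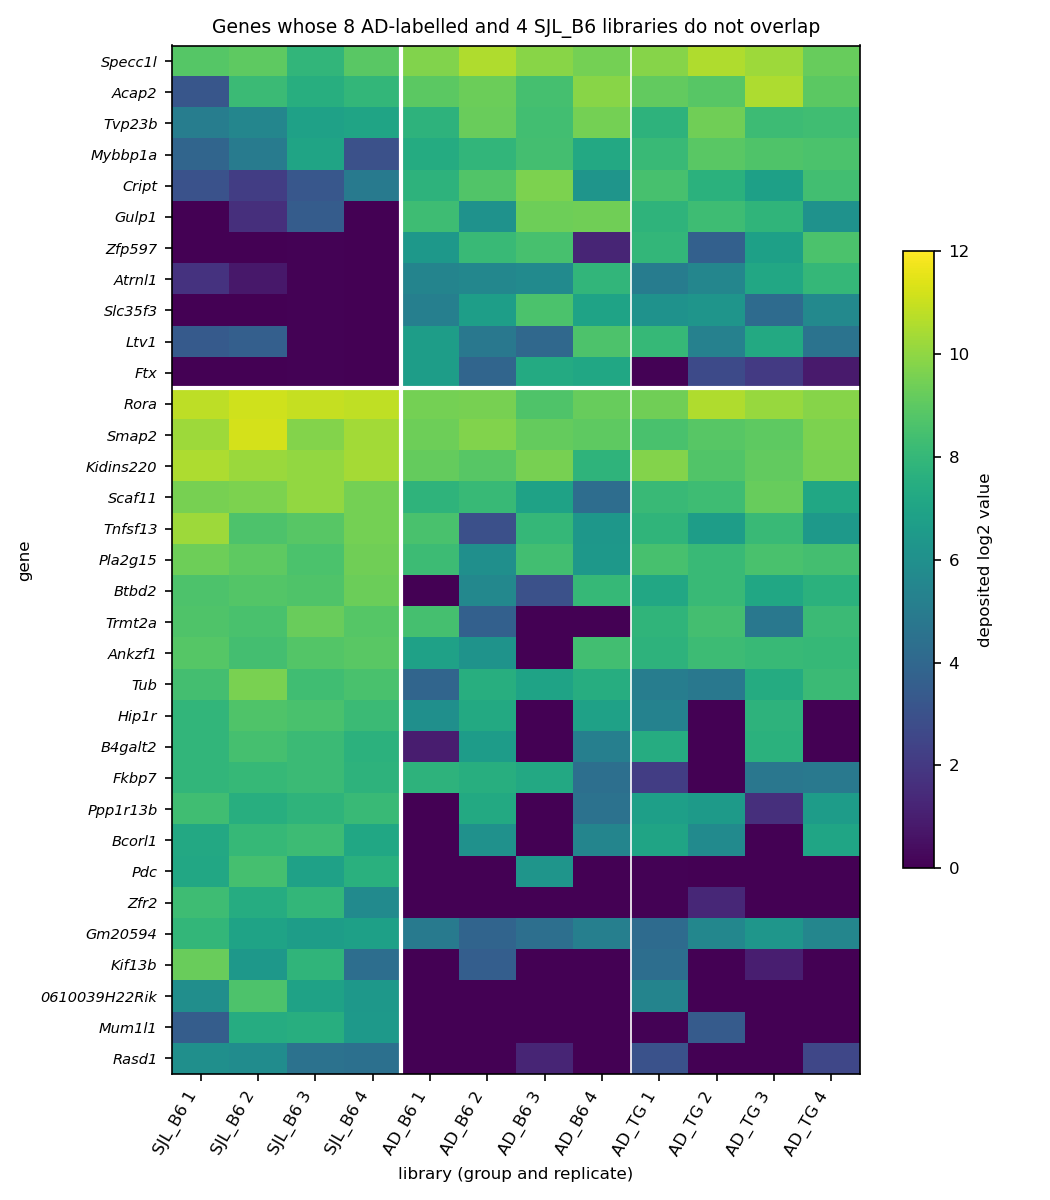
Heat map of the deposited log2 values (colour, 0 to 12) of the 33 genes whose 8 AD-labelled and 4 SJL_B6 libraries do not overlap, with genes as rows and libraries as columns. The 11 rows above the horizontal line are higher and the 22 below it lower in the AD-labelled libraries; dark cells at 0 are frequent on both sides, and 13 of the 33 rows have reads in every library.

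Among well-measured genes, those higher in the AD-labelled libraries included the scaffold Sdcbp (syntenin), which takes part in exosome formation. It was at 10.19, 9.40, 9.80 and 9.30 in SJL_B6 and at 9.54 to 11.27, median 11.08, in the AD-labelled libraries. All but AD_B6 replicate 3 lay above SJL_B6 (difference 1.18, SE 0.40, unadjusted p = 0.00732). Gnb2, a G protein beta subunit, was at 9.52, 9.95, 9.67 and 10.20 in SJL_B6 and at 9.72 to 11.54, median 10.96, with 6 of 8 above (difference 0.98, SE 0.42, unadjusted p = 0.028). Calm2, 1 of the calmodulin genes, was at 10.61, 9.76, 11.07 and 11.48 against 10.65 to 12.26, and here the groups overlapped widely (difference 0.78, SE 0.36, and 0.46 without SJL_B6 replicate 2). Ahcyl2 (difference 0.96, SE 0.43) and Nme7 (0.88, SE 0.40) overlapped as well, with 3 and 6 of the 8 AD-labelled libraries above SJL_B6. Without SJL_B6 replicate 1 the difference of Ahcyl2 was 0.39 (unadjusted p = 0.315), and without SJL_B6 replicate 2 that of Nme7 was 0.55 (unadjusted p = 0.197). On the lower side, the kinase Mapk3 (ERK1) was at 12.27, 12.16, 11.27 and 11.08 in SJL_B6 and at 10.14 to 11.52, median 10.64 (difference -0.95, SE 0.36, unadjusted p = 0.0136). Its difference was -0.75 (unadjusted p = 0.0673) without SJL_B6 replicate 1, and -0.66 (unadjusted p = 0.195) in the 7 libraries that list no small values. Snhg11, a host gene of small nucleolar RNAs, was 1.46 lower than SJL_B6 in AD_B6 and 0.49 lower in AD_TG, an unadjusted p of 0.0374 between the 2 AD groups.

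**Figure D4:**
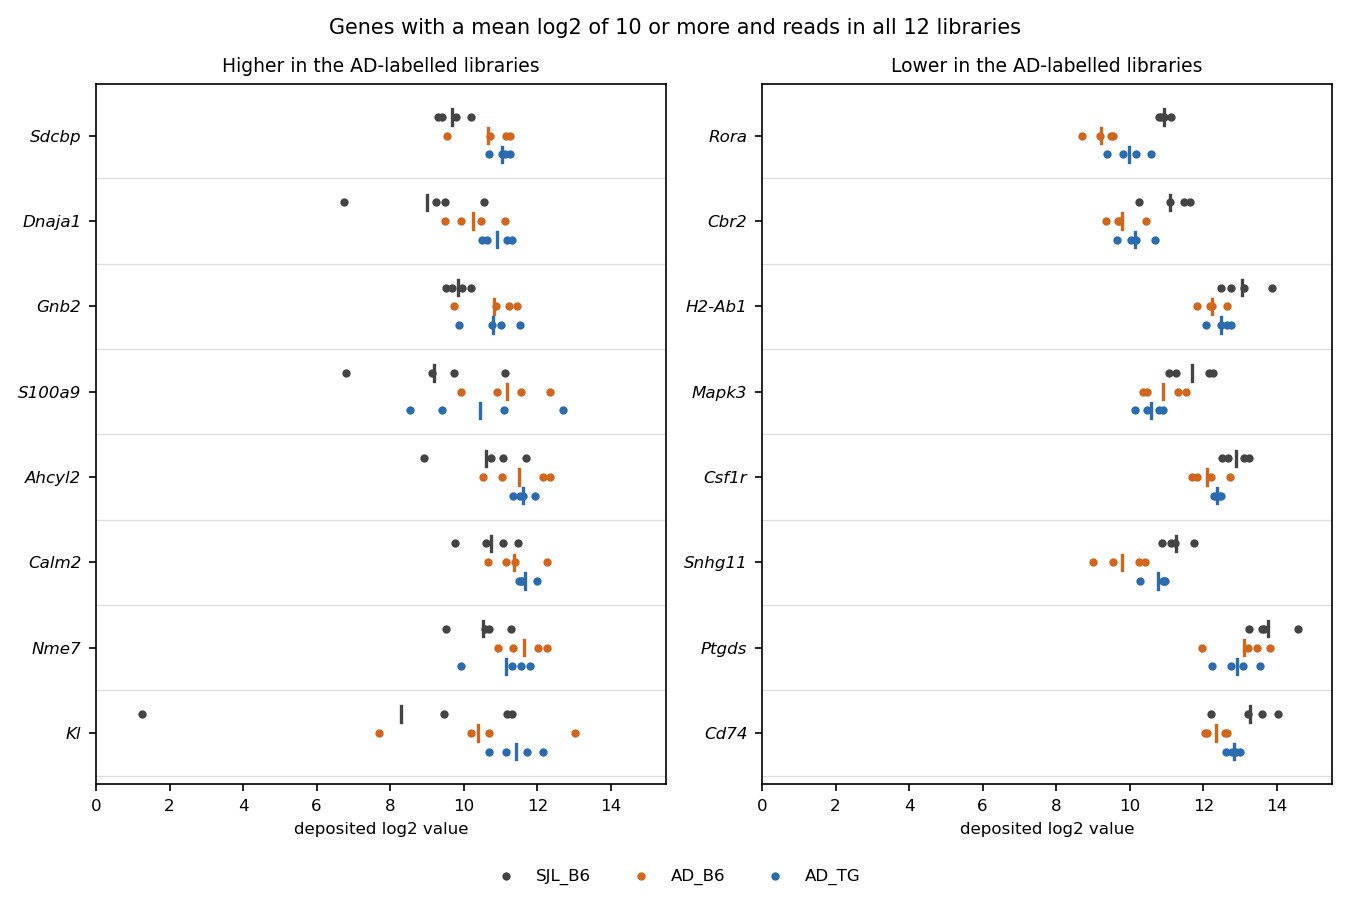
Deposited log2 values of 8 genes on each side, those of lowest unadjusted p among 965 genes with a mean of 10 or more and reads in all 12 libraries; each point is a library and each vertical bar a group mean. Rora is the gene of the 16 in which no AD-labelled library reaches an SJL_B6 library; Kl and Dnaja1 owe their low SJL_B6 means to 1 library each, at 1.26 and 6.75.

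Gene groups are given as counts of their tested members beside all genes, of which 44.4% were higher and the median difference was -0.14. No member of any of the 40 lists passed, and 27 of the 36 lists with 5 or more tested members had a median below 0, 16 of them below that of all genes. With each library centred, 16 of the 36 had a median below 0. Lymphatic endothelial genes were mostly lower, with 2 of 12 higher, 10 lower and a median difference of -0.51. Lyve1 was at 8.90, 10.39, 7.79 and 8.47 in SJL_B6, had no reads in AD_B6 replicate 3 and was at 7.47 to 9.23 in the other 7 AD-labelled libraries. Its difference of -1.47 (SE 1.26, unadjusted p = 0.253) became -0.36 without that library. Reln, a secreted glycoprotein made by lymphatic endothelium, had reads in 3 of 4 SJL_B6 libraries, at 7.66, 5.14 and 7.08, and in 1 of 8 AD-labelled ones, at 7.75 (unadjusted p = 0.0383, and 0.113 without SJL_B6 replicate 2). Foxc2, a factor of lymphatic valves, was at 8.71 to 10.14 against 4.21 to 10.65, and Itga9, a valve integrin, at 3.35 to 8.54 against 0.00 to 8.48. Itga9 was not lower in both AD groups, with a difference of -5.36 in AD_B6 and 0.15 in AD_TG. Flt4 had reads in 2 of 4 SJL_B6 and 4 of 8 AD-labelled libraries, and Pdpn was at 7.85 to 10.62 against 8.25 to 10.08, so neither showed a direction beyond its spread.

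Growth factors for these vessels leaned the other way, with 9 of 13 tested genes of lymphangiogenic signalling higher and a median of 0.94, 1.22 in AD_B6 and 0.27 in AD_TG. Vegfa was at 8.03, 5.74, 7.73 and 8.61 in SJL_B6 and at 6.18 to 11.50, median 8.57 (unadjusted p = 0.302). Angpt1, the ligand of the receptor Tie2, was at 2.53, 6.77, 8.99 and 0.00 against 0.03 to 8.82 (unadjusted p = 0.321). Ramp2, a part of the adrenomedullin receptor, was at 8.03 to 9.78 against 6.46 to 9.69, a difference of -0.75. None of the 13 had an unadjusted p below 0.05. Of 15 general endothelial genes 5 were higher and 10 lower, with a median of -0.59, -0.81 in AD_B6 and 0.06 in AD_TG. Only 5 were lower in both AD groups, and 5 were higher in both. Pecam1 had reads in 3 of 4 SJL_B6 and 5 of 8 AD-labelled libraries, and differed by 0.01 in AD_B6 and -1.83 in AD_TG. Egfl7 was lower, at 7.80 to 9.40 against 0.00 to 8.92. Robo4 was higher, with reads in 0 of 4 and 6 of 8, and passed the filter through the AD-labelled libraries alone. Cdh5, the endothelial cadherin, had reads in 2 of 4 SJL_B6 libraries, at 6.78 and 7.92, and in all 8 AD-labelled ones, at 2.50 to 7.86. Of 8 mural cell genes 2 were higher, and the pericyte receptor Pdgfrb, at 6.08, 9.98, 2.98 and 6.80 against 7.29 to 10.04, was 1 of them (difference 2.10, unadjusted p = 0.0535, and -0.24 in the 7 libraries that list no small values).

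MHC class II genes were lower in both AD groups in 7 of 8 cases, with a median difference of -0.68, -0.87 in AD_B6 and -0.50 in AD_TG. H2-Ab1, a class II beta chain, was at 12.47, 13.88, 13.10 and 12.75 in SJL_B6 and at 11.83 to 12.75, median 12.36, in the AD-labelled libraries, where 5 of 8 lay below SJL_B6. The difference was -0.69 (SE 0.26, unadjusted p = 0.0132), and -0.42 (unadjusted p = 0.131) without SJL_B6 replicate 2. Cd74, the invariant chain that escorts class II molecules, was at 13.20, 14.04, 13.59 and 12.21 against 12.05 to 13.01, a difference of -0.67 (SE 0.27, unadjusted p = 0.0182), and -0.41 (unadjusted p = 0.15) without the same library. H2-Aa, the partner of H2-Ab1, was at 13.72 to 15.04 against 13.38 to 14.41 (difference -0.43, unadjusted p = 0.0526, and -0.19, unadjusted p = 0.385, without that library), and H2-DMa, which loads peptides, at 8.85 to 10.81 against 6.37 to 9.53 (difference -1.12, unadjusted p = 0.104).

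Macrophage genes went the same way. Of 17 tested, 13 were lower and 4 higher, 10 of them lower in both AD groups, with a median of -0.26. All 17 had reads in at least 7 AD-labelled libraries, so no defining marker was missing from that set as a whole. Csf1r, the receptor that keeps macrophages alive, was at 13.24, 13.10, 12.68 and 12.50 in SJL_B6 and at 11.69 to 12.74, median 12.32, in the AD-labelled libraries, 7 of which lay below SJL_B6 (difference -0.63, SE 0.24, unadjusted p = 0.0162). Its difference was -0.51 (unadjusted p = 0.0692) without SJL_B6 replicate 1, and -0.49 (unadjusted p = 0.199) in the 7 libraries that list no small values. The complement genes C1qa and C1qb, made by macrophages, differed by -0.59 (unadjusted p = 0.0838) and -0.68 (unadjusted p = 0.0693), and Tyrobp, a signalling adaptor, by -0.65 (unadjusted p = 0.181). Without SJL_B6 replicate 1 the difference of C1qa was -0.30 (unadjusted p = 0.392), and without SJL_B6 replicate 2 that of Tyrobp was -0.41 (unadjusted p = 0.45). Since class II genes are read in macrophages too, the part of macrophage content in the class II values was not tested.

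Granulocyte genes were higher in both AD groups in 8 of 10 cases, with a median of 1.40. Ngp, a granule protein of immature neutrophils, was at 7.28, 7.43, 0.07 and 7.36 in SJL_B6 and at 5.98 to 11.05, median 9.34, in the AD-labelled libraries, with 7 of 8 above SJL_B6 (difference 3.57, SE 1.21, unadjusted p = 0.00706). S100a9, a calprotectin subunit, was at 9.14, 11.11, 6.79 and 9.75 against 8.54 to 12.69, median 11.001 (difference 1.61, SE 0.70, unadjusted p = 0.0306). Both depended on SJL_B6 replicate 3, without which the differences were 1.75 (unadjusted p = 0.066) and 0.81 (unadjusted p = 0.243). In the 7 libraries that list no small values they were 1.003 (unadjusted p = 0.397) and 0.01 (unadjusted p = 0.993). The 13 granulocyte genes summed to 0.0134% to 0.332% of the linear total in the AD-labelled libraries and 0.0102% to 0.109% in SJL_B6, and Mpo, a defining enzyme of granules, had reads in 3 of 8 and 0 of 4. Red cell genes went the other way, with 6 of 7 lower (median -0.56) and Hba-a1 at 13.21, 13.36, 13.43 and 13.41 in SJL_B6 against 11.65 to 15.09. The CD3 genes Cd3e and Cd3g had no reads in any library. Cd4, the 1 tested member of the T and NK cell list, had reads in all 4 SJL_B6 libraries, at 3.89 to 7.89. It had reads in 6 of 8 AD-labelled ones, at 4.21 to 9.36.

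Heat shock and chaperone genes were higher in 10 of 13 cases, 9 of them in both AD groups, with a median of 0.37. Dnaja1, a cochaperone of HSP70, was at 6.75, 9.48, 9.24 and 10.56 in SJL_B6 and at 9.48 to 11.32, median 10.57 (difference 1.57, SE 0.55, unadjusted p = 0.0089); without SJL_B6 replicate 1 it was 0.82 (unadjusted p = 0.0925). Dnajb1, another HSP70 cochaperone, was at 7.35, 6.00, 8.75 and 9.72 against 8.49 to 11.79 (difference 1.81, SE 0.71, unadjusted p = 0.018), and 1.154 (unadjusted p = 0.112) without SJL_B6 replicate 2. The inducible HSP70 gene Hspa1b was at 8.82, 8.33, 8.15 and 7.92 against 8.39 to 11.46, with 6 of 8 above (difference 1.27, SE 0.61, unadjusted p = 0.0483), and 0.95 (unadjusted p = 0.12) without AD_B6 replicate 2. Hspd1, the mitochondrial chaperonin, was lower, at 9.21 to 10.68 against 8.48 to 9.82 (difference -0.91, unadjusted p = 0.0854). Hspa1b has a near-identical neighbour, Hspa1a, and reads of the 2 may have been split between them.

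Immediate early genes, which are induced quickly by many signals, were higher in 11 of 18 cases (median 0.33), 9 of 18 (median -0.08) when the number of genes with reads was a term in the fit. Egr3 had no reads in SJL_B6 and reads in 5 of 8 AD-labelled libraries, up to 7.84. Atf3, a stress-induced factor, was at 1.76, 7.46, 6.72 and 5.92 against 5.28 to 10.46, and Jund, a subunit of AP-1, at 11.14 to 12.34 against 10.62 to 11.99 (differences 1.98 and -0.49); without SJL_B6 replicate 1 the difference of Atf3 was 0.75. Of 13 interferon response genes 7 were higher, and Ifit2, an antiviral effector, was read in SJL_B6 replicate 3 alone, at 3.51, and in 7 of 8 AD-labelled libraries, up to 8.75 (unadjusted p = 0.0234). Its relative Ifit1 was at 6.52 to 8.69 against 0.00 to 9.53, a difference of -2.54, so the pair did not move together. Of 14 genes of inflammatory signalling 7 were higher. Relb, a subunit of NF-kB, had no reads in SJL_B6 and reads in 6 of 8 AD-labelled libraries, with a median of 6.64 (unadjusted p = 0.0137), while the NF-kB inhibitor Nfkbia was at 11.19 to 12.22 against 10.55 to 12.74. Egr3 and Relb passed the filter through the AD-labelled libraries alone. Both were named for a small p within their lists, so their patterns are not findings of their own.

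App, the amyloid precursor gene, had a narrow spread. It was at 12.33, 12.58, 13.02 and 12.69 in SJL_B6, 12.88, 13.27, 12.80 and 13.13 in AD_B6, and 12.99, 12.85, 12.98 and 13.21 in AD_TG. The AD-labelled mean of 13.01 ± 0.17 (SD, 8 libraries) exceeded 12.66 ± 0.29 (SD, 4 libraries) by 0.36, with a 95% interval from -0.07 to 0.78 and an unadjusted p of 0.0959, and 3 of the 8 lay above SJL_B6. The excess was 0.36 in AD_B6 and 0.35 in AD_TG. Of 22 genes of amyloid processing and clearance, 8 were higher and 14 lower (median -0.19), and 11 and 11 (median -0.04) with each library centred. Mme (neprilysin), which degrades amyloid peptide, was at 1.14, 5.42, 2.17 and 0.00 in SJL_B6 and at 0.00 to 9.42, median 7.32, with 6 of 8 above (unadjusted p = 0.0971). Bin1, a membrane-bending protein of endocytosis, was at 9.79 to 10.94 against 7.43 to 10.47 (difference -1.10, unadjusted p = 0.0638), and Psen2, a gamma-secretase subunit, at 8.84 to 10.32 against 0.00 to 9.43.

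Rcan1, an inhibitor of the phosphatase calcineurin, was at 9.05, 5.21, 7.17 and 8.18 in SJL_B6, 8.74, 9.55, 9.54 and 7.34 in AD_B6, and 6.47, 9.28, 7.54 and 7.70 in AD_TG. The groups overlapped, and the difference of 0.87 had a 95% interval from -0.99 to 2.72 (unadjusted p = 0.344). It was 0.14 without SJL_B6 replicate 2, 2.19 in the 7 libraries that list no small values and -0.94 in the 5 that do, so no direction held across the libraries. Of 18 calcineurin and NFAT genes 9 were higher and 9 lower (median -0.04, or 0.11 with each library centred). The catalytic subunits went opposite ways, Ppp3ca at 9.09 to 11.17 against 10.20 to 11.59 (difference 0.71) and Ppp3cb at 8.45 to 9.34 against 0.00 to 10.40 (difference -1.89), neither with an unadjusted p below 0.05. Without SJL_B6 replicate 1 the difference of Ppp3ca was 0.41, and without AD_B6 replicate 1 that of Ppp3cb was -0.77.

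Genes of neighbouring tissues varied widely from library to library. Choroid plexus genes were higher in 8 of 11 cases (median 0.46, -0.10 in AD_B6 and 1.04 in AD_TG). Kl (klotho), which is abundant in choroid plexus epithelium, was at 9.46, 1.26, 11.31 and 11.19 in SJL_B6 and at 7.68 to 13.04, median 10.93 (difference 2.61, unadjusted p = 0.0404). Without SJL_B6 replicate 2 the difference was 0.26 (unadjusted p = 0.708), and that of Folr1, a folate receptor of this epithelium, turned from 1.99 to -0.77. In that library Ttr, the main secreted protein of the choroid plexus, took 0.162% of the linear total, against 4.15% to 5.16% in the other SJL_B6 libraries and 0.244% to 8.31% in the AD-labelled ones. Pineal genes were lower in 7 of 8 cases (median -0.91), their sum being 0.0446% to 0.325% of the linear total in the AD-labelled libraries and 0.105% to 0.222% in SJL_B6. Aanat, the defining enzyme of melatonin synthesis, had reads in 0 of 8 and 1 of 4. Sag, an arrestin of photoreceptors and pineal cells, was at 9.96 to 11.26 against 7.67 to 11.18 (difference -0.95, unadjusted p = 0.0945). Phosducin, described above, is a gene of the same cells, and the part of pineal content in its values was not tested. Among 14 meningeal fibroblast genes 3 were higher and 11 lower (median -0.16), but 7 and 7 (median -0.01) with each library centred, with Ptgds, the prostaglandin D synthase of the leptomeninges, at 14.59, 13.60, 13.65 and 13.24 in SJL_B6 and 11.98 to 13.80 in the AD-labelled libraries (difference -0.76, SE 0.30, unadjusted p = 0.0173). Without SJL_B6 replicate 1 the difference of Ptgds was -0.49 (unadjusted p = 0.133), and in the 7 libraries that list no small values -0.31 (unadjusted p = 0.516).

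**Figure D5:**
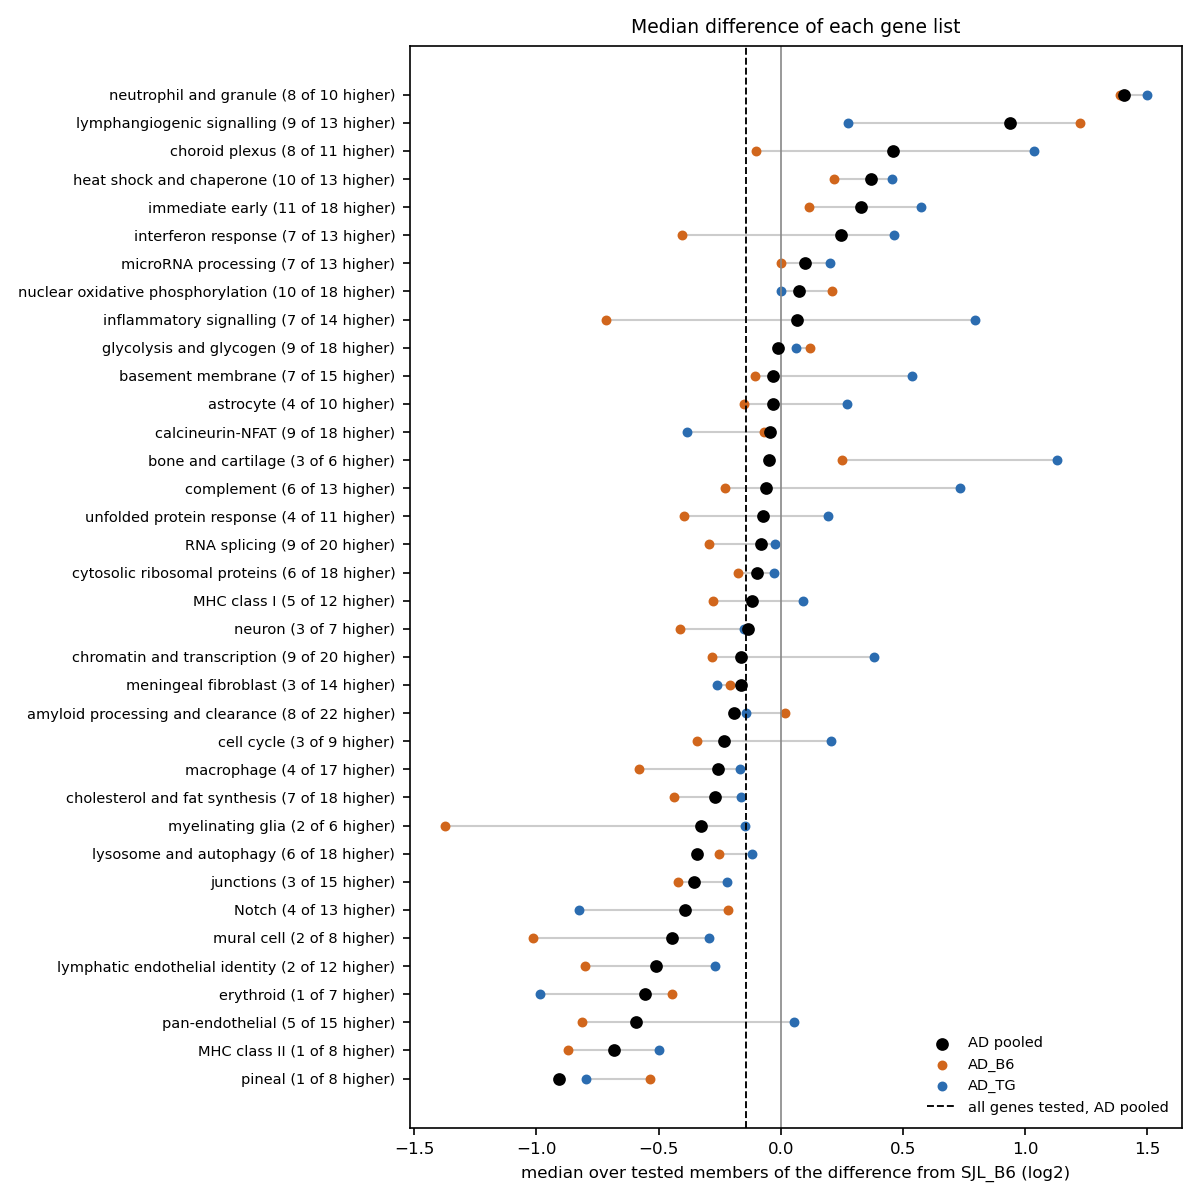
Median difference from SJL_B6 (log2) over the tested members of 36 gene lists, for the pooled AD-labelled libraries (black) and for AD_B6 and AD_TG (coloured); the dashed line is the median of all genes tested (-0.14). Granulocyte genes lie highest at 1.40 and pineal genes lowest at -0.91, and for lists such as inflammatory signalling the AD groups lie on opposite sides of 0.

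Matrix and junction genes gave a mixed picture. Basement membrane genes were 7 higher and 8 lower of 15, and the median of -0.03 was above 0 with each library centred (0.12) and with quantile normalization (0.25). Plod2, a lysyl hydroxylase that prepares collagen for cross-linking, had reads in 2 of 4 SJL_B6 libraries, at 1.76 and 4.19, and in all 8 AD-labelled ones, at 3.50 to 8.57 (unadjusted p = 0.00412, and at most 0.0118 with any 1 library left out). Col4a2, a collagen IV chain, was at 9.40, 7.76, 9.18 and 1.43 against 7.70 to 10.05 (difference 2.38, unadjusted p = 0.0315). Without SJL_B6 replicate 4 the difference of Col4a2 was 0.54 (unadjusted p = 0.409). Lama4, a laminin chain of vessels, had reads in 2 of 4 and 7 of 8. Junction genes were lower in 12 of 15 cases (median -0.36), with Cdh1 at 8.24 to 9.18 against 6.79 to 8.79 and Cldn1 the other way, at 0.76 to 8.38 against 5.34 to 8.98. Of 13 Notch genes 9 were lower (median -0.39), and 7 with each library centred; with quantile normalization the median was -0.06. Notch3, the receptor of mural cells, was at 9.70, 7.51, 7.61 and 7.19 in SJL_B6 and at 0.00 to 8.19, median 5.20 (unadjusted p = 0.0545), and Notch2 at 8.75 to 9.86 against 9.53 to 11.32.

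Groups with general functions in the cell were given by the same counts. Of 18 ribosomal protein genes 12 were lower (median -0.10), but 7 with each library centred (median 0.06), with Rplp1 at 12.60 to 13.68 against 12.04 to 13.50, a difference of -0.53 (unadjusted p = 0.0506). Of 18 nuclear genes of oxidative phosphorylation 10 were higher (median 0.08). Lysosome and autophagy genes were lower in 12 of 18 cases (median -0.34), among them Gaa, the lysosomal glucosidase, at 10.68 to 11.35 against 9.79 to 10.78 (difference -0.68, unadjusted p = 0.0782), and Npc1, which exports cholesterol from lysosomes, at 7.84 to 9.80 against 5.72 to 8.92. In fat synthesis, Acaca and Fasn were lower, at 3.85 to 8.90 against 0.00 to 7.28 and at 8.41 to 9.89 against 0.00 to 10.14, while Mid1ip1, described above, was higher. Of 4 genes that are known to differ between inbred strains, Dysf, Nnt and Pde6b had reads in all 4 SJL_B6 libraries, and H2-Ea-ps was listed at 0 in all 12. Dysf, which carries a mutation in SJL mice, was at 6.17, 7.02, 6.65 and 7.90, and had reads in 4 of 8 AD-labelled libraries, up to 6.35 (unadjusted p = 0.027). Reads from the 3′ end need not cover the sites at which strains differ, so these values do not check the strain.

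Some of these genes stood apart between the AD groups. The median difference of all genes from SJL_B6 was -0.31 in AD_B6 and 0.08 in AD_TG, and AD_B6 had 10288 ± 1124 genes with reads (SD, 4 libraries) against 11536 ± 408 (SD, 4 libraries) in AD_TG. The complement receptor C5ar1 was at 8.96, 8.78, 8.23 and 6.90 in SJL_B6 and at 9.16 to 10.54 in AD_TG, but in AD_B6 it had reads in 2 libraries, at 9.09 and 1.25. Rbm4, an RNA-binding protein of splicing, was at 7.98 to 9.85 in SJL_B6 and differed from it by -6.33 in AD_B6 and by -0.41 in AD_TG. Crebbp, a histone acetyltransferase, was at 10.29, 10.09, 10.25 and 10.20 in SJL_B6, a narrow range, and at 4.31 to 10.65 in the AD-labelled libraries, with a difference of -2.94 in AD_B6 and -0.43 in AD_TG. No difference between the AD groups passed after adjustment, so these values describe the libraries and do not set the groups apart.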

How the data were processed

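Each of the 12 files gives 1 log2 value per gene, deposited by the authors as log2 of a scaled amount plus 1; reads were handled with Bowtie2 and bedtools and the build is named as hg19, per the submitters' processing notes, and the scaling is not given in the sources used here. With a human build named for mouse libraries, no coordinates are given. Reads per library were estimated as the linear total divided by the value of 1 read. Of 23238 symbols (23282 entries; of the 35 symbols with several entries the one with the highest mean was kept), 11955 with a linear value of 10 or more in at least 4 libraries were tested. limma 3.58.1 in R 4.3.3 fitted 3 groups, the contrast being the mean of AD_B6 and AD_TG minus SJL_B6, with a trended prior, two-sided tests and Benjamini-Hochberg adjustment at 0.05; differences are on the log2(value + 1) scale and understate low genes. Single values per library were compared by exact permutation. Named genes are the 10 per direction with the smallest p and a mean of 3 or more, 8 per direction among abundant genes, up to 4 per list, Rcan1, App and markers; 1 gene on the lower side is not reported here. Members, lists and rules were chosen with earlier results of these data known. The fit was tested on simulated data. Alternatives covered filter, pseudocount, scaling, weights, prior, replicate block and each library left out.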

Additional observations from a re-analysis of the deposited data

Results flagged for a closer look

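Within-group outliers were sought in the genes named by rule and in the library measures. In 20 of 171 groups of 4 or 8 libraries the highest or lowest value stood apart from the rest by more than the Dixon limit. The limit is set for about 1 in 20 among independent, normally distributed values. Here many genes were picked by p, many values are at 0, and the groups of 8 reuse the libraries of the groups of 4. The count therefore cannot be set against that rate. Several are genes read in 1 library of a group and absent from the others: Fam219b at 9.408 in SJL_B6 replicate 1, Flt4 at 7.327 and Scai at 7.471 in AD_B6 replicate 1, Kif13b at 3.567 and Nup37 at 8.616 in AD_B6 replicate 2, Nup37 at 6.218 in AD_TG replicate 1, and, within AD_B6 and within all 8 AD-labelled libraries alike, Pdc at 6.245 in AD_B6 replicate 3 and Slc25a36 at 6.669 in AD_B6 replicate 4. Prox1, at 8.378 in SJL_B6 replicate 1, had reads in 1 other SJL_B6 library, at 0.876. Fzd5, at 7.999 in AD_TG replicate 1, had reads in 1 other AD-labelled library, at 2.342. Lyve1 was the reverse, at 0 in AD_B6 replicate 3 against 7.471 or more in the other 7 AD-labelled libraries.

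Single libraries also stood above or below others that had reads. Pygl was at 10.03 in AD_B6 replicate 1, Fzd5 at 9.097 in SJL_B6 replicate 1, and Nup37 at 8.696 in SJL_B6 replicate 2. On the low side were Sdcbp at 9.539 in AD_B6 replicate 3, Snhg11 at 10.273 in AD_TG replicate 2, and the share of Ttr at 1.53% of the linear total in AD_TG replicate 3 against 5.57% to 6.23% in the other AD_TG libraries.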

How the results depend on the processing

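Under 29 alternatives, 5 of them added after seeing the data, 139 of 155 named genes kept their direction. Many of the 155 were picked by small p or by separation in these same libraries. That picking favours a kept direction, so the count is not support for it. The difference of Flt4 turned to 0.90 without SJL_B6 replicate 1, 0.52 without SJL_B6 replicate 3, 0.18 without AD_TG replicate 3, 0.82 with a term for genes with reads and 4.52 in the 7 libraries with no small values; Pdpn turned to 0.053 without SJL_B6 replicate 1, Folr1 to -0.77 without SJL_B6 replicate 2 and Pdgfrb to -0.24 in the 7 libraries. With each library left out, Flt4 ranged from -2.04 to 0.90, Pdpn from -0.87 to 0.053 and Folr1 from -0.77 to 3.11. In the 5 libraries with small values, Rcan1 turned to -0.94, Lyve1 to 0.48, Pecam1 to 1.13, Foxc2 to 0.082, Cdh5 to -1.08, Alas2 to 0.26, Hbb-bt to 0.133, Hba-a1 to 0.097, Folr1 to -0.12, Angpt1 to -1.54, Npc1 to 0.25, Uty to -0.16 and Nnt to 0.29. The causes were not tested. Without the trended prior 3 genes passed higher and 3 lower, and 55 were lower at an unadjusted p below 0.05 in both AD groups; with a library left out as well, 0 to 6 and 1 to 8 passed. All other alternatives gave 0 passing genes. Without a filter, 332 genes were lower at an unadjusted p below 0.05, and 102 in both groups. With genes read in all 12 libraries only, which tests fewer genes, the counts were 115 higher and 70 lower, 10 lower in both groups, and 5 and 8 without overlap. Centring each library gave 19 genes higher without overlap, and the term for genes with reads gave 12 lower in both groups. Among fewer libraries, more of the 11955 genes tested separate completely in random order. Counts without overlap in the 7 and in the 5 libraries are therefore not support for a difference. In the 7 libraries, 117 were lower, 70 and 38 were higher and lower in both groups, and 328 and 539 did not overlap, fewer libraries having to separate; in the 5, 470 were lower, and 1092 and 1243 did not overlap. With each library left out in turn, the counts at an unadjusted p below 0.05 were 188 to 291 higher and 118 to 296 lower, in both groups 26 to 90 and 18 to 35, without overlap 15 to 40 and 25 to 71, and the lowest adjusted p by limma was 0.0984 to 1. The replicate numbers did not pair the libraries: deviations of same-numbered libraries correlated at -0.015 to 0.067, those of others at -0.071 to 0.062, and 4 of 12 libraries correlated best with their own number. With a replicate block 0 genes passed, 248 were higher and 177 lower at an unadjusted p below 0.05, and 49 and 26 in both groups. With a median half-interval of 3.34, most genes could show large differences only; the part of sequencing depth in that width was not tested.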
